A study of Mus musculus with 2 samples.

Results

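The genes described here are Atf4 and 9 regulators and targets of the integrated stress response, namely Atf5, Ddit3, Trib3, Chac1, Sesn2, Nupr1, Cebpg, Asns and Vldlr. They are 10 of the 18193 genes that have a probe set annotated to them alone, and they were chosen by their signals on these same 2 arrays, which were lower together in the Cpdm one. Their direction is therefore a description of how they were selected, and no test was made on it. Affymetrix arrays measured messenger RNA in mouse bone marrow cells that had not been sorted, with 1 culture for Cpdm and 1 culture for wildtype. Cpdm, the chronic proliferative dermatitis line, carries a spontaneous frameshift mutation in Sharpin and lacks the functional protein, which belongs to the complex that builds linear ubiquitin chains. Both cultures were grown for 10 days with β-glycerophosphate at 10 mM and ascorbic acid at 50 µg/ml, which drive marrow stromal cells towards bone-forming osteoblasts, and neither received any other treatment. The sources used here do not state the age or sex of the mice, their number per culture or any pooling. No culture was repeated, so the differences have no replicate error or p-value and belong to this pair of arrays.

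The integrated stress response is a switch at the start of protein synthesis. Kinases that sense endoplasmic reticulum stress, amino acid shortage, viral RNA or lack of haem phosphorylate the initiation factor eIF2α, which lowers translation of most messages and raises translation of a few, Atf4 among them. The ATF4 protein then pairs with C/EBP proteins on composite DNA elements near genes for amino acid synthesis, amino acid import, tRNA charging and stress signalling. In bone, ATF4 is a regulator of osteoblasts, where it supports amino acid supply for collagen synthesis. Because ATF4 is controlled to a large extent by translation, its messenger RNA is an indirect reading of its activity.

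The DNA elements that ATF4 binds share a core, and the stretches that hold it near the starts of these genes are shown. The core was picked for display after the ratios were seen. No link between the core and the size of a difference was tested. The core searched was TGATGNAA, the conserved part of the C/EBP-ATF response element, on both strands of RefSeq promoter windows of GRCm38.p6 that run from 250 bases before to 50 bases after a transcript start. All 10 genes had a window, 12 windows in all because Atf5 and Vldlr have 2 starts each. The core was present near 5 of the 10 genes, Chac1, Vldlr, Trib3, Asns and Nupr1, against 4.51% of all 27025 genes with a window. It was in 5 of the 12 windows, against 3.97% of all 32851 windows. Each stretch is written 5′ to 3′ on the strand of its gene, with the core in capitals.
Chac1, chr2:119351038-119351067, plus strand: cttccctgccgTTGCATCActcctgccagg
Vldlr, the second start, chr19:27216809-27216838, plus strand: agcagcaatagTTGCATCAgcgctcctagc
Trib3, chr2:152344028-152344057, minus strand: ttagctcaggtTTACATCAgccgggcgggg
Asns, chr6:7693214-7693243, minus strand: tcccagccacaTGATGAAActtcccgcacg
Nupr1, chr7:126625562-126625591, minus strand: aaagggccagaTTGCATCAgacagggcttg
The core lay on the strand of the gene at Asns and on the opposite strand at the other 4 genes. Chac1, Vldlr and Nupr1 hold the form with C in the variable place, TGATGCAA, which is a subset of the same search. It occurs in 0.895% of windows and near 1.03% of genes. The distance from the start differed, with the core beginning 23 bases before it in Asns, 110 in Nupr1, 193 in Chac1 and 200 in Vldlr. In Trib3 it lies at bases 15 to 22 after the start. The full cyclic AMP response element, TGACGTCA, was in none of the 12 windows and in 1.79% of all windows. A part of the endoplasmic reticulum stress element, CCACG, was near 7 of the 10 genes, against 35.5% of all genes. Those 7 were Asns, Atf4, Atf5, Cebpg, Chac1, Nupr1 and Sesn2. A match is a string of letters, and a window without one holds none of these letters within its limits, so neither says whether ATF4 binds there.

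**Figure D1:**
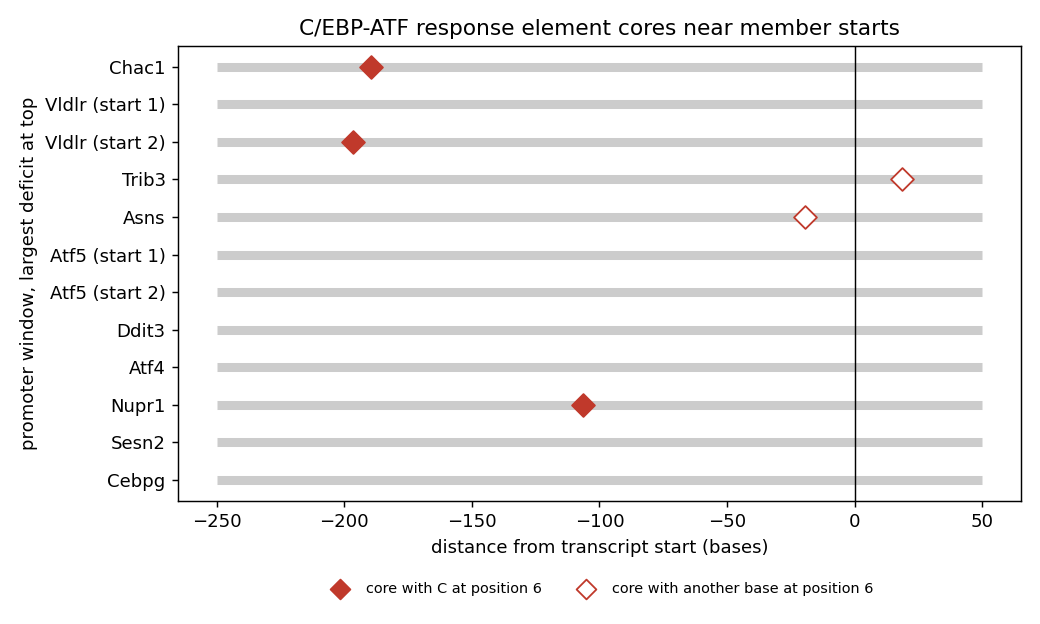
Position of the TGATGNAA core (diamonds) in the 12 promoter windows (grey bars, 250 bases before to 50 after each transcript start), with genes in order of their log2 ratio and the largest deficit at the top. Of the 4 genes at the top, Chac1, Vldlr, Trib3 and Asns, each holds a core in 1 window, and of the other 6 only Nupr1 does. A link between the core and this order was not tested.

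The whole stretch before the start is given for Chac1 and for Asns, so that the surroundings of the core can be read. By the brightest probe set of each gene, Chac1 had the largest difference, though it could not be ordered against Vldlr. Asns is the best known target among the 10.
Chac1, chr2:119350992-119351241, plus strand: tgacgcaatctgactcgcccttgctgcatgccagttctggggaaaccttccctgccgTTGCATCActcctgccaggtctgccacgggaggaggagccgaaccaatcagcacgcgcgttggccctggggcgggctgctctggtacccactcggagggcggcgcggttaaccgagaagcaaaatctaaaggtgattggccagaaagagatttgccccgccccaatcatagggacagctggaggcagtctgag
Asns, chr6:7693210-7693459, minus strand: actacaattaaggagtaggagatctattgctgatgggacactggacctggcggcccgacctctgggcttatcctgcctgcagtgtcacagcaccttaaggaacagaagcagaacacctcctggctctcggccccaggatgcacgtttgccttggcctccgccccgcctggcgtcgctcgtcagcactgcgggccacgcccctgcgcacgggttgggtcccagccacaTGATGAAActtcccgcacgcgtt
Both stretches hold 1 match each, and their G and C content is 60.8% for Chac1 and 61.6% for Asns.

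All values below are linear MAS5 signals, the array's summary of a probe set's brightness, and a log2 ratio is the Cpdm signal over the wildtype signal. A floor was set at the 40th percentile of each array, a signal of 18.5 in Cpdm and 18.7 in wildtype, and lower signals were raised to it, so a fold against a floored signal is written as at least that large. Of all genes, 14055 reached the floor in at least 1 array, and their median log2 ratio was 0.03. The 18 probe sets for spiked-in control RNA averaged 0.01 ± 0.11 on that scale (SD, n = 18 probe sets). How far apart 2 probe sets of a gene lay, taken over 5250 genes, corresponds to a robust SD of 0.32 for a single log2 ratio. This is the yardstick used here, and it leaves out differences between mice and cultures. Sharpin read 162 in Cpdm and 197 in wildtype by its brighter probe set, and because a frameshift need not remove a transcript this does not check the genotype labels. The arrays also differed in sex-linked transcripts, with Xist at 1113 in Cpdm and 247 in wildtype and the Y-linked Eif2s3y at 80.6 in Cpdm and 249 in wildtype, and the part of this difference in the results below was not tested.

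All 10 genes had a lower signal in the Cpdm culture, as did 47.6% of all measured genes. The difference reached 2-fold for 7 of them, against 5.98% of measured genes, and the other 3 were lower by less. None of the 10 was higher, where 5.84% of measured genes were at least 2-fold higher. The median log2 ratio of the 10 genes was -1.69, which is 3.22-fold lower, with single genes between -4.20 and -0.53. Chac1, Vldlr and Trib3 were at least 8-fold lower, as were 0.626% of measured genes, Asns, Atf5, Ddit3 and Atf4 were between 2.20-fold and 5.75-fold lower, and Nupr1, Sesn2 and Cebpg lay under 2-fold. In a bulk culture, fewer cells of a type and less RNA per cell cannot be told apart.

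**Figure D2:**
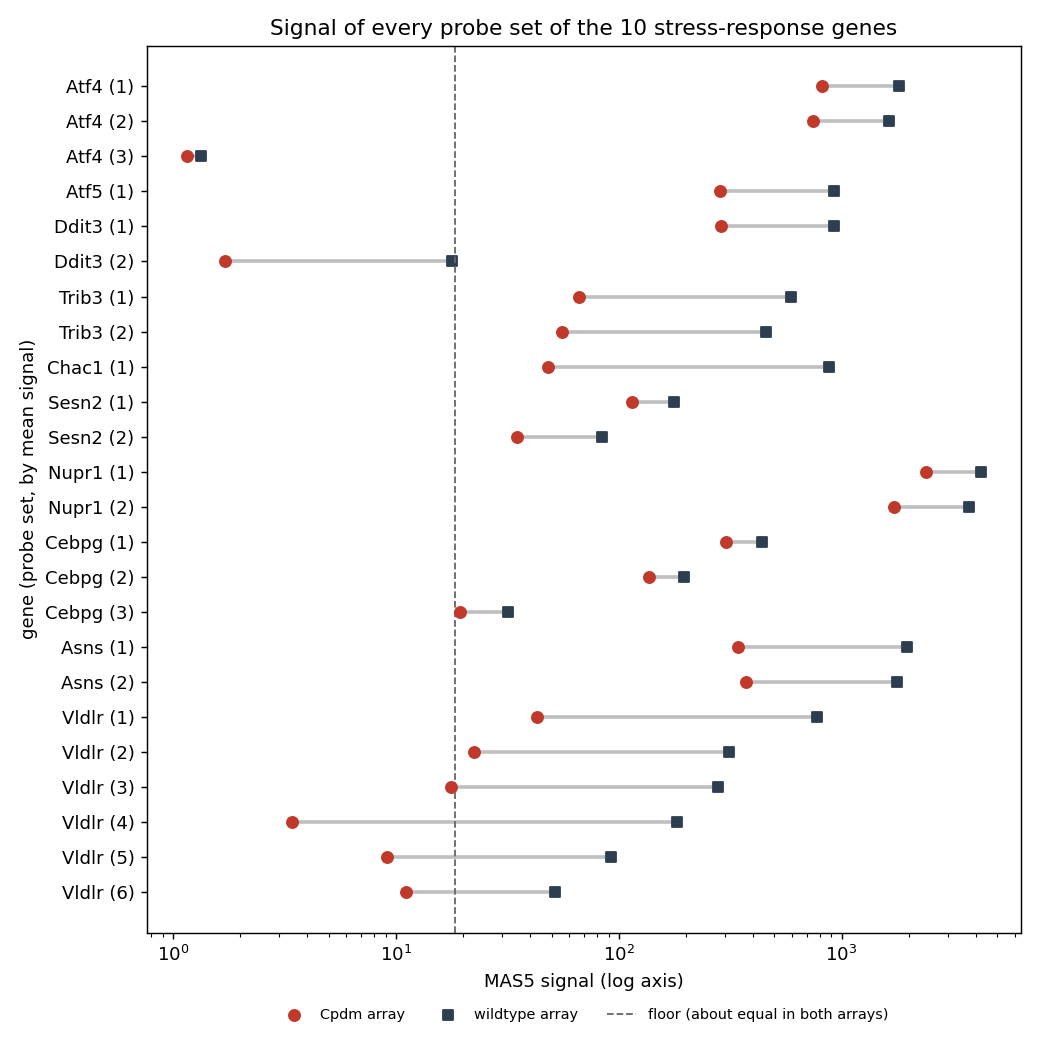
MAS5 signal (log axis) of all 24 probe sets of the 10 genes, with the Cpdm array as circles, the wildtype array as squares and the floor as a dashed line. The Cpdm signal lies left of the wildtype signal for all 24, and 2 probe sets, the third of Atf4 and the second of Ddit3, lie below the floor in both arrays.

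Atf4 and Atf5 encode the transcription factors at the head of this response. Atf4 read 819 in Cpdm cells and 1803 in wildtype cells by its brighter probe set, a log2 ratio of -1.14, or 2.20-fold lower. A second probe set read 741 in Cpdm and 1635 in wildtype and gave the same log2 ratio to 2 decimals, and the remaining one lay far below the floor at 1.15 in Cpdm and 1.33 in wildtype. The 2 informative probe sets therefore place Cpdm at 45.4% of wildtype or close to it. Atf5, a close relative that is likewise controlled by translation and takes part in the mitochondrial stress response, read 286 in Cpdm and 925 in wildtype by its only probe set. That is 3.23-fold lower, a log2 ratio of -1.69, and no second probe set checks it.

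Ddit3 and Cebpg encode C/EBP-type partners of ATF4. Ddit3, better known as CHOP and associated with cell death under prolonged stress, read 287 in Cpdm and 924 in wildtype, which is 3.22-fold lower. Its log2 ratio of -1.68 was next to that of Atf5, and its other probe set was below the floor in both arrays at 1.71 in Cpdm and 17.8 in wildtype. Cebpg, which forms dimers with ATF4 on amino acid response genes, showed the smallest difference of the 10. Its 3 probe sets read 304, 137 and 19.5 in Cpdm, against 438, 197 and 31.7 in wildtype, with log2 ratios of -0.53, -0.53 and -0.71. The faintest of these lies just above the floor in Cpdm, and all 3 gave the same direction below 2-fold.

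The genes that feed back on the response or carry its signal further were spread over the whole range. Trib3, a pseudokinase that is induced by ATF4 and CHOP and restrains them, read 66.6 in Cpdm and 594 in wildtype, or 8.93-fold lower, and 55.7 in Cpdm and 459 in wildtype by a second probe set, or 8.25-fold lower. The probe sets of Trib3 thus agree within the spread between probe sets. Chac1, an enzyme that degrades glutathione and a marker of the ATF4 branch, read 47.9 in Cpdm and 882 in wildtype. At 18.4-fold lower it had the largest difference of the 10 by representative probe set, and 22 of the 14055 measured genes had a lower log2 ratio, though Chac1 has a single probe set here. Sesn2, a stress-induced inhibitor of the growth kinase complex mTORC1, read 115 in Cpdm and 177 in wildtype by the brighter probe set and 34.95 in Cpdm and 84.5 in wildtype by the other. These give 1.54-fold and 2.42-fold lower, so whether Sesn2 passes 2-fold depends on the probe set. The gap of 0.65 log2 units between them was the widest among probe sets of 1 member that were above the floor in both arrays. Nupr1, a small chromatin-associated stress protein, had the brightest probe sets, with 2392 in Cpdm and 4217 in wildtype by one and 1713 in Cpdm and 3723 in wildtype by the other. Those are 1.76-fold and 2.17-fold lower, on both sides of 2-fold, and the wildtype signals lie near the top of the array, where the highest signal was 5156 and compression of the scale was not tested.

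Among the effector genes, Asns encodes asparagine synthetase, which makes asparagine when it is short. Its probe sets read 344 and 374 in Cpdm, against 1975 and 1766 in wildtype, which are 5.75-fold and 4.72-fold lower. The identifier of the brighter one ends in _x_at, which marks probes that may cross-hybridise, and the other, a plain probe set, gave a log2 ratio of -2.24. Vldlr encodes the very low density lipoprotein receptor, a lipid and reelin receptor that ATF4 induces under endoplasmic reticulum stress. It has 6 probe sets, the most of any member. The 2 that were above the floor in both arrays read 43.2 in Cpdm and 772 in wildtype, or 17.9-fold lower, and 22.5 in Cpdm and 313 in wildtype, or 13.9-fold lower. The other 4 reached the floor only in wildtype, at 278, 182, 92.2 and 51.6, and their Cpdm signals of 17.7, 3.42, 9.15 and 11.1 lay below it. These 4 give folds of at least 15.04, 9.86, 4.99 and 2.79 lower. All 6 were thus at least 2-fold lower, while the size of the difference rests on Cpdm signals near or under the floor.

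**Figure D3:**
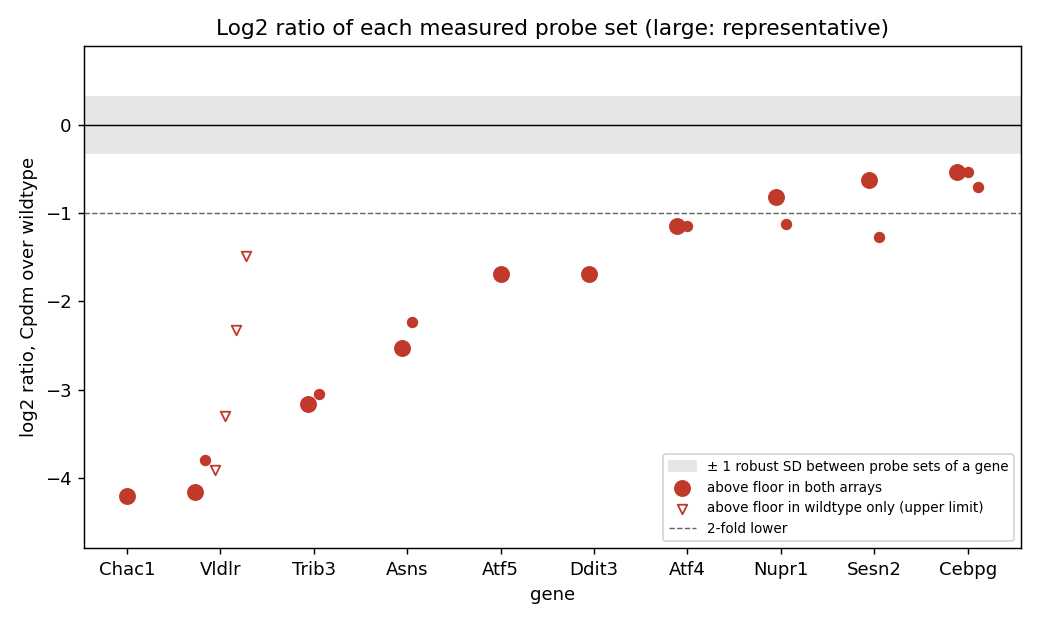
Log2 ratio of Cpdm over wildtype for every probe set above the floor in at least 1 array, with genes ordered by their representative probe set (large circle), other probe sets as small circles and upper limits as open triangles. The grey band is 1 robust SD of 0.32 on each side of 0, and every point lies below it. Sesn2 and Nupr1 have points on both sides of the dashed 2-fold line.

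Counted over probe sets, all 24 had a lower signal in Cpdm. In both arrays 18 of them reached the floor, and all 18 were below 0, against 48.8% of all single-gene probe sets that did so. Of the 18, 13 were at least 2-fold lower, against 5.66% of all single-gene probe sets at or above it in both. The order of the genes by representative probe set ran from Chac1 and Vldlr through Trib3, Asns, Atf5, Ddit3, Atf4, Nupr1 and Sesn2 to Cebpg. Set against a spread of 0.45 log2 units for a difference between probe sets, Chac1 and Vldlr could not be ordered, with a gap of 0.04, and neither could Atf5 and Ddit3, with a gap of 0.01. The neighbours from Atf4 to Cebpg were separated by gaps of 0.09 to 0.32 and could not be ordered either. The gaps from Vldlr to Trib3, from Trib3 to Asns, from Asns to Atf5 and from Ddit3 to Atf4 were wider than the spread, at 1.003, 0.64, 0.83 and 0.55. By floored values, the order of Vldlr and Trib3 still depended on the probe set rule. With the mean over probe sets Vldlr was at -3.16 and Trib3 at -3.10, and with the probe set nearest 0 they were at -1.48 and -3.04. Both Vldlr values are upper limits, because the mean includes 4 probe sets floored in Cpdm and the value nearest 0 comes from one of them. The true order under these 2 rules is therefore not known.

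**Figure D4:**
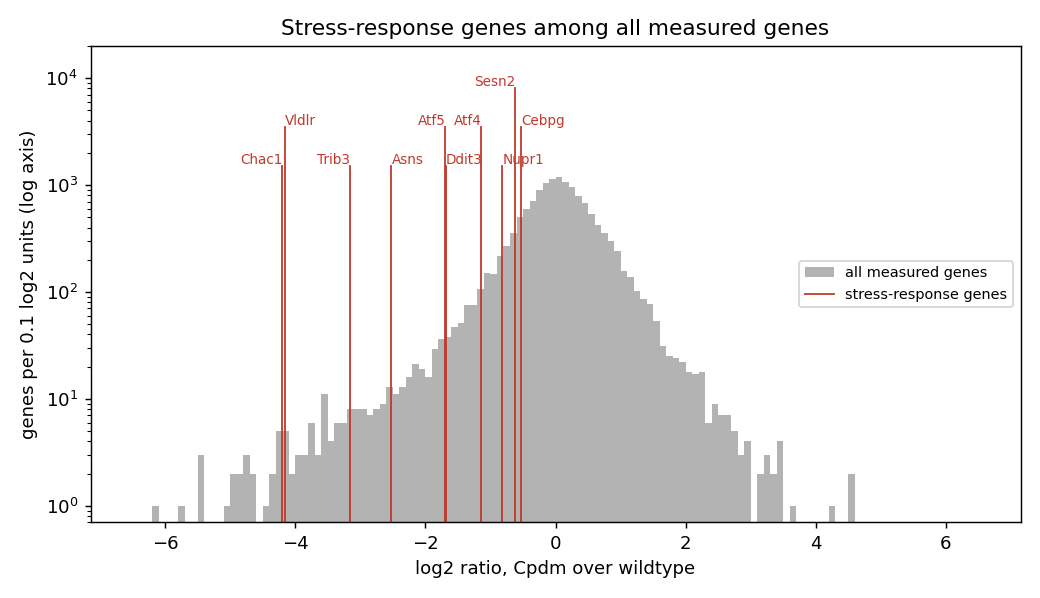
Distribution of log2 ratios of Cpdm over wildtype for all 14055 measured genes (grey bars, count on a log axis) with the 10 stress-response genes as red lines. The genes stand on the lower side of 0, and Chac1 and Vldlr, at -4.20 and -4.16, lie where few genes are found.

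Several relatives of these genes read higher in Cpdm, and others lower. Sesn1, a sestrin gene known as a p53 target, read 1270 in Cpdm and 448 in wildtype, 2.84-fold higher where Sesn2 was lower, and its other probe sets had log2 ratios of 1.03 and 1.47. Sesn3 had a log2 ratio of 0.89, and of 1.33, past 2-fold, by its other probe set. Of the tribbles genes, Trib2 read 95.4 in Cpdm and 320 in wildtype, or 3.35-fold lower, and Trib1 was above the floor in Cpdm only, at 31.2. Chac2, the constitutive relative of Chac1, read 105 in Cpdm and 76.8 in wildtype. The C/EBP genes Cebpa, Cebpd and Cebpb had log2 ratios of 0.98, 0.45 and 0.20, all above 0 where Cebpg was below it, although a second Cebpb probe set gave -0.28. In the list of receptors and partners related to Vldlr, 9 of 10 measured genes were above 0. Lrp6, a Wnt co-receptor, read 675 in Cpdm and 262 in wildtype. Lrp4, which restrains Wnt signalling in bone, was the exception at 57.0 in Cpdm and 185 in wildtype, and Lrp8, the reelin receptor most like Vldlr, read 36.7 in Cpdm and was below the floor in wildtype at 16.6. Among 14 measured ATF and CREB relatives, 1 was at least 2-fold lower and 1 at least 2-fold higher. The lower gene was Creb3l1, which encodes the stress transducer OASIS of osteoblasts, at 171 in Cpdm and 1028 in wildtype. The higher gene was Batf, a factor of immune cells, at 128 in Cpdm and 45.9 in wildtype, and Jdp2, a repressor of the AP-1 family, read 167 in Cpdm and 296 in wildtype. No test compared a member with its relatives.

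The listed genes upstream of ATF4 differed by less than 2-fold by their representative probe sets. Among 19 measured genes for the eIF2α kinases, its phosphatases, the eIF2 and eIF2B complexes and related factors, none reached 2-fold in either direction. The median log2 ratio was -0.03. Eif2s1, the gene of eIF2α itself, was listed but had no probe set annotated to it alone, so it was not measured here. Eif2a, named below, is a different gene. Other probe sets passed 2-fold for Eif2s3x, with a log2 ratio of -1.07, and for Eif2b2, at 1.06, both genes being named after their values were seen. Eif2s3y, the Y-linked gene of an eIF2 subunit, was not in the list. By its brighter probe set it read 80.6 in Cpdm and 249 in wildtype, a log2 ratio of -1.63, which passes 2-fold. Eif2ak3, the gene of the endoplasmic reticulum sensor PERK, read 273 in Cpdm and 270 in wildtype. The gene of the haem-regulated kinase, Eif2ak1, read 129 in Cpdm and 132 in wildtype. Eif2ak4, which encodes the amino acid sensor GCN2, was faint at 42.0 in Cpdm and 33.8 in wildtype. Eif2ak2, which encodes the RNA sensor PKR, read 34.7 in Cpdm and 40.9 in wildtype by its representative probe set, with log2 ratios of 0.20 and 0.76 by its others. Ppp1r15a, the stress-induced phosphatase subunit GADD34 and itself an ATF4 target, read 137 in Cpdm and 226 in wildtype, and the eIF2B subunit gene Eif2b1 and the initiation factor gene Eif2a had log2 ratios of -0.78 and 0.70. These are transcript levels, and phosphorylation of eIF2α was not measured.

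Most other genes known as ATF4 targets had a lower signal in Cpdm. Over 4 lists of such targets with the 10 genes left out, 60 genes were measured. By representative probe set, 31 were lower by 2-fold or more, against 5.98% of all measured genes. None was higher by that much, against 5.84%. Of the 60, 53 were below 0, against 47.6% of all measured genes. The median over them was -1.04, and 29 differed by less than 2-fold. By the probe set nearest 0 in each gene, fewer genes were at least 2-fold lower in each of the 4 lists. In the amino acid synthesis list, 12 of 14 measured genes were at least 2-fold lower, with a median of -1.78. By the probe set nearest 0 in each gene, 9 of 14 were, with a median of -1.39. Aldh1l2, a mitochondrial folate enzyme, read 95.7 in Cpdm and 1141 in wildtype. Phgdh, the first enzyme of serine synthesis, read 196 in Cpdm and 1406 in wildtype, and the mitochondrial PEP carboxykinase gene Pck2 read 122 in Cpdm and 685 in wildtype. In the amino acid transport list, 7 of 12 were at least 2-fold lower, with a median of -1.07. With the probe set nearest 0 in each gene, 4 of 12 were, with a median of -0.40. Slc7a5, the large neutral amino acid transporter, was below the floor in Cpdm and read 222 in wildtype, at least 12.0-fold lower. The cationic amino acid transporter gene Slc7a3 read 31.6 in Cpdm and 322 in wildtype, and the glycine transporter gene Slc6a9 read 101 in Cpdm and 458 in wildtype.

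The aminoacyl-tRNA synthetase genes, whose enzymes charge tRNAs with amino acids, were counted apart by whether they are in the ATF4 target list used here. Of 12 measured genes in the list of ATF4-induced synthetases and the tRNA exporter, all 12 were below 0 and 6 were at least 2-fold lower, with a median of -1.04. By the probe set nearest 0, 5 of the 12 were at least 2-fold lower. Yars, Cars and Iars, for tyrosine, cysteine and isoleucine, were 4.72-fold, 2.87-fold and 2.29-fold lower. Of 7 measured cytosolic synthetase genes outside that list, none differed by 2-fold and 3 were below 0. Their median was 0.17, or -0.06 with the probe set nearest 0. In that group Kars, Farsb and Vars had log2 ratios of -0.59, 0.53 and -0.47. Both lists were drawn up with earlier results of these data known, and the difference between them was not tested.

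Among signalling and secreted targets, 6 of 22 measured genes were at least 2-fold lower by representative probe set, with a median of -0.65. The count was 4 of 22 with the probe set nearest 0 and 8 of 22 with the mean over probe sets. None was at least 2-fold higher by that rule, although another probe set of Sesn3 gave 1.33. Adm2, a secreted peptide of the calcitonin family, was below the floor in Cpdm and read 135 in wildtype, at least 7.28-fold lower. Ndrg1, which also responds to hypoxia, read 124 in Cpdm and 837 in wildtype. Herpud1, a component of endoplasmic reticulum degradation that ATF6 also induces, read 303 in Cpdm and 874 in wildtype.

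**Figure D5:**
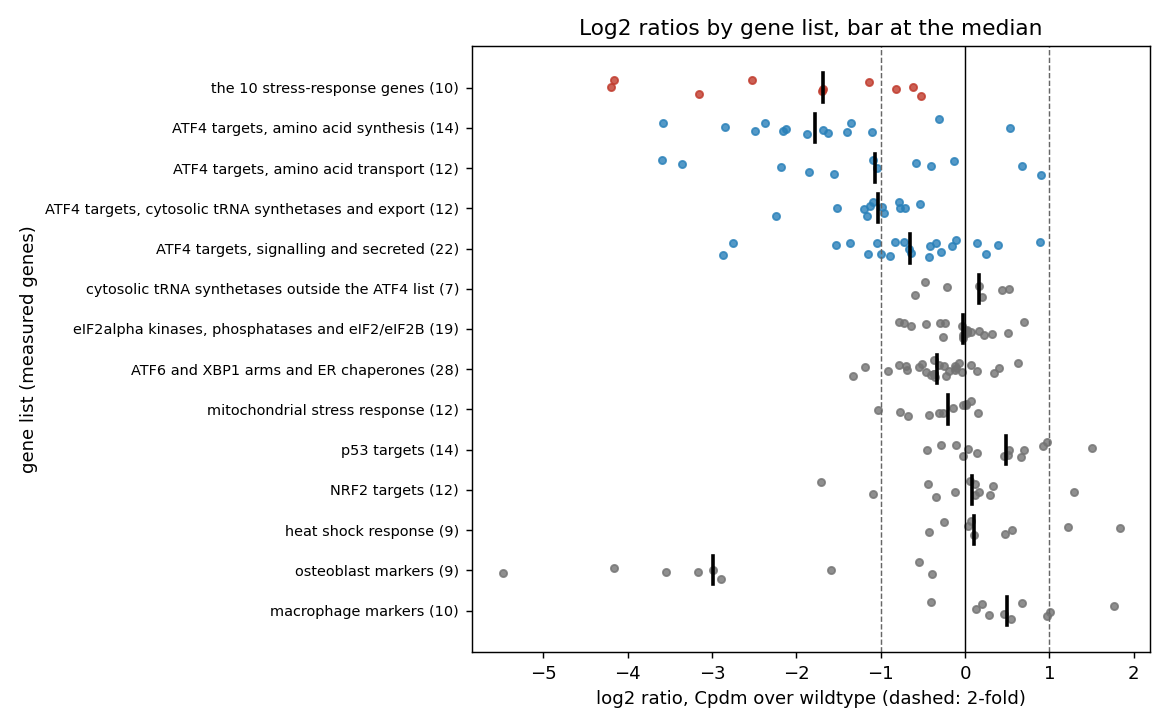
Log2 ratio of Cpdm over wildtype for each measured gene of the 10 stress-response genes (red), 4 lists of other ATF4 targets (blue) and 9 further lists (grey), with the number measured in brackets and a bar at each median. The amino acid synthesis list has a median of -1.78, the kinase and initiation factor list -0.03 and the osteoblast marker list -2.98.

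Other stress programmes of the cell had medians between -0.33 and 0.48. The next list held the ATF6 and XBP1 arms of the unfolded protein response and endoplasmic reticulum chaperones. By representative probe set, 2 of its 28 measured genes were at least 2-fold lower, with a median of -0.33 and 23 genes below 0. Other probe sets ranged from -1.29 to -0.43 for Derl1, from -1.12 to -0.19 for Sel1l and from -1.18 to -0.23 for Ern1. Those 3 genes thus passed 2-fold lower by some probe sets only. Dnajb9 read 694 in Cpdm and 1574 in wildtype, Derl3 was below the floor in Cpdm and at least 2.51-fold lower, and the disulfide isomerase gene Pdia4 had a log2 ratio of -0.91, or -0.10 by another probe set. Of 12 mitochondrial stress genes, Hspa9 alone was at least 2-fold lower, at 543 in Cpdm and 1107 in wildtype, and the median was -0.20. Another Hspa9 probe set gave -0.57, and no gene passed with the mean over probe sets. In that list Dnaja3 and Yme1l1 were at -0.77 and -0.68. The list of p53 targets, to which Sesn1 belongs and which shares stimuli with Sesn2, had a median of 0.48 with 1 of 14 genes at least 2-fold higher, and Gtse1 had a log2 ratio of 0.97. Perp was above the floor in Cpdm only, at 35.5 in Cpdm and 17.6 in wildtype, or at least 1.90-fold higher. With the probe set nearest 0, the p53 median was 0.11. Targets of the antioxidant factor NRF2 had a median of 0.09 over 12 genes, in which Me1 and Slc7a11 were at least 2-fold lower and Osgin1 at least 2-fold higher. Slc7a11, the cystine importer, is an ATF4 target too and read 20.2 in Cpdm and 43.0 in wildtype, both faint, and its other probe set gave -0.40, so that only Me1 stayed at least 2-fold lower with the probe set nearest 0. Heat shock genes had a median of 0.11 over 9 genes, with Hspa1b and Hspb1 3.56-fold and 2.33-fold higher and Hsp90aa1 at 0.55. A second Hspb1 probe set gave 0.81, under 2-fold.

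Marker transcripts of some cell types that an unsorted marrow culture can hold differed between the arrays along with these genes. Of 9 measured osteoblast markers, 7 were at least 2-fold lower, all 9 were below 0, and the median was -2.98. Their summed signal was 8082 in Cpdm and 19554 in wildtype. With the mean over probe sets, 8 of the 9 were at least 2-fold lower, and another Ibsp probe set gave -2.63. Phex, a regulator of phosphate, was below the floor in Cpdm and at least 44.7-fold lower, and the parathyroid hormone receptor gene Pth1r and the alkaline phosphatase gene Alpl were 17.9-fold and 11.7-fold lower. Of 10 macrophage markers, 2 were at least 2-fold higher and none was lower by that much, with a median of 0.50 and a summed signal of 16326 in Cpdm and 12506 in wildtype. Fcgr1, Msr1 and Adgre1, which encode macrophage surface receptors, were 3.39-fold, 2.01-fold and 1.96-fold higher, with Msr1 at 0.58 and 0.85 on the log2 scale by its other probe sets. Csf1r was at 0.46 by its representative probe set and past 2-fold higher by its others, at 1.12 and 1.25. Lyz2, the lysozyme gene, was the 1 member below 0, at 2657 in Cpdm and 3507 in wildtype. The part of these marker differences in the lower signals of the stress-response genes was not tested.

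Among markers of the remaining cell types, Ltf was the only measured gene that reached 2-fold with the floor used here. With no floor, 2 neutrophil, 1 endothelial and 1 osteoclast marker were at least 2-fold lower, on signals that are mostly faint. Of 8 osteoclast markers, 5 were measured and none differed by 2-fold, with a median of -0.02, which was -0.51 over 8 markers with no floor. Their summed signal was 1966 in Cpdm and 2894 in wildtype, and Ctsk, Mmp9 and Oscar had log2 ratios of -0.96, -0.46 and 0.37. Calcr, Ocstamp and Dcstamp were below the floor in both arrays. Of 6 adipocyte markers, 5 were measured with a median of -0.23 and a summed signal of 2132 in Cpdm and 2510 in wildtype, and Cebpa, Pparg and Lpl had log2 ratios of 0.98, -0.80 and -0.71. Neutrophil markers had a median of -0.56 over 5 measured of 7, with a summed signal of 131 in Cpdm and 206 in wildtype. Of these Ltf was at least 2.06-fold lower, and S100a9, at 10.2 in Cpdm and 27.5 in wildtype, at least 1.49-fold lower. Ngp was at -0.56, and Elane and Camp were below the floor in both arrays. B cell markers summed to 69.9 in Cpdm and 77.4 in wildtype over 3 measured of 4, with Pax5 and Ms4a1 at -0.48 and -0.41. Cd79b was above the floor in Cpdm only, at 19.9 in Cpdm and 9.59 in wildtype, and Cd79a was below it in both. T and NK cell markers summed to 120 in Cpdm and 153 in wildtype over 2 measured of 5, with Cd8a and Cd3e at -0.38 and -0.24. Endothelial markers summed to 115 in Cpdm and 157 in wildtype over 2 measured of 6, with Esam and Kdr at -0.58 and -0.37. The defining genes Cd3g, Cd3d, Nkg7, Pecam1, Cdh5, Tek and Emcn were below the floor in both arrays.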

How the data were processed

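Total RNA, 5 µg per culture, was labelled by the Affymetrix in vitro transcription protocol, per the labels' protocols. The deposited table holds linear MAS5 signal intensity values for 45101 probe sets in 2 arrays. The submitters' processing notes list GCOS 1.4 and MAS5. The MAS5 method scales each array by 1 factor, and the mean without the lowest and highest 2% was 100 in both columns. No source used here states the scaling target, the background settings or detection calls, and the number of arrays limits the precision.

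Without controls the table has 45037 probe sets, and the platform annotation gives 1 gene for 34945 of them, several for 932 and none for 9160. The brightest probe set by mean log2 signal stood for a gene, after the floor at the 40th percentile of each array. Members and the 23 other gene lists were chosen with earlier results of these data known. The text names every member with all its probe sets, the 4 eIF2α kinases, and of each other list the 3 genes with the largest absolute log2 ratio, and relatives of members. Xist, Eif2s3y, Sharpin, Eif2s3x, Eif2b2, Derl1, Sel1l, Ern1, Ibsp, Csf1r, Lyz2 and the markers below the floor were named outside that rule, with their values known. Eif2s1, which has no values here, was also named outside it. List symbols were matched by symbol or RefSeq synonym. Promoter windows and their coordinates are from RefSeq, GRCm38.p6; no build is named with the signals. Calculations ran in Python 3.11.15 with pandas 2.3.3, numpy 2.4.6 and, for loess, statsmodels 0.14.6. The code was run on simulated data with 200 changed genes, all changed by more than 2-fold. The simulated noise was smaller than the spread between probe sets here, so this checks the code and not the precision of these data. No test between genotypes is possible with 1 array each. Alternatives changed the floor, the scaling, the probe set rule or the fold.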

Additional observations from a re-analysis of the deposited data

How the results depend on the processing

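With 1 array per genotype, no replicate could be left out. No paired analysis was possible because each genotype has 1 array and the labels give no replicate numbers. The count of members at least 2-fold lower stayed at 7 under every other floor, scaling and probe set rule but one. Leaving out probe sets ending in _s_at, _x_at or _a_at left 7 members measured, 5 of them at least 2-fold lower, because Atf5, Trib3 and Nupr1 have no other kind. The count was 9 at 1.5-fold, which 13.5% of measured genes passed, and 6 at 3-fold, which 2.43% passed. The median of the members lay between -1.74 and -1.58 over the 10 alternatives that give one, while the median of all measured genes lay between 0.00 and 0.05. Of 97 member ratios under the alternatives, none changed sign and 6 moved by more than the robust SD of 0.32. Chac1 and Vldlr read -3.81 and -3.74 with 16 added to every signal, Sesn2 read -0.95 with the mean over probe sets, and Vldlr ranged up to -1.48 with the probe set nearest 0, whose Cpdm signal is floored. Of 229 medians of the other lists, 7 moved by more than that SD and none changed sign from a value past 2-fold. These were osteoclast markers (-0.46 and -0.51 with the 20th percentile floor and no floor), neutrophil markers (-0.06 and -0.21 with the 60th percentile floor and 16 added), and, with the probe set nearest 0, amino acid synthesis (-1.39), amino acid transport (-0.40) and p53 targets (0.11). Of 229 list counts, 15 moved by over 1.5 times, each by 1 gene in the neutrophil, endothelial, osteoclast, ATF6 and XBP1, initiation factor, mitochondrial and NRF2 lists, except amino acid transport, which had 4 with the probe set nearest 0. Signals under the floor limit the size of the largest folds.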
